A study of Homo sapiens with 18 samples.

Results

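The solute carrier genes of 2 human melanoma lines were described across 6 groups of expression arrays. Every gene with a current symbol of the form SLC, family number, letter A to F and member number was taken, while the organic anion transporting SLCO genes were left out. This rule gave 190 of the 11232 genes on the arrays, from 52 families. A gene was tested where its log2 signal reached 4 or more in at least 3 arrays, which held for 185 of the carriers and 10935 genes in all. The carriers left out by this filter on low values were SLC29A1, SLC4A5, SLC60A1, SLC68A1 and SLC8A1. Of the 185, 157 had means of log2 4 or more in all 6 groups, and SLC13A5 passed through its level in A375M2 shNFYA cells alone.

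A375M2 is a metastatic derivative of the melanoma line A375, whose name its arrays carry as the cell line, and C32 is another melanoma line. All cells carried a lentiviral vector. In A375M2 the groups were cells with shRNAs against FHL2 (A375M2 shFHL2), cells with shRNAs against NFYA (A375M2 shNFYA), cells with full-length PMEL (A375M2 PMEL) and cells with GFP alone (A375M2 GFP). In C32 they were shFHL2 and GFP, and each group had 3 arrays. The FHL2 hairpins were a pool of 3 constructs, PMEL was His-tagged and driven by a CMV promoter, and the brightest GFP cells were sorted and kept under drug selection. Culture and sorting were described for A375M2; the sources used here give neither for C32 or for the NFYA hairpins, nor do they say which GFP vector the GFP arrays hold. No group with a non-targeting hairpin is labelled. The A375M2 arrays came from separate experiments, per the series' design text. Nothing says so for C32, where p-values measure only the spread between arrays.

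Solute carriers are membrane proteins that move amino acids, sugars, metals, nucleotides, vitamins and ions across the plasma membrane and the membranes of organelles. Several work in pairs: the heavy subunit SLC3A2 brings the light chains SLC7A11, SLC7A5 and SLC7A8 to the cell surface, and SLC7A11 exchanges glutamate for the cystine from which glutathione is made. In pigment cells SLC7A11 also feeds the cystine used for red and yellow pigment, and many amino acid carriers are targets of ATF4, a transcription factor of amino acid and endoplasmic reticulum stress. FHL2 is a LIM-domain scaffold protein, PMEL forms the fibrils of melanosomes, and NFYA is the regulatory subunit of NF-Y, which binds the CCAAT word in promoters.

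Because 1 of the hairpin pools targets a CCAAT-binding factor, promoter letters were read from RefSeq's table for GRCh38.p14, which matched 156 of the 190 carriers in windows of 300 bases. CCAAT or its reverse complement ATTGG was present in 62 of these 156 windows (39.7%), against 35.7% of 27305 promoters. The ATF4-type word TGATGCA or its reverse complement TGCATCA was in 0.6% of the carriers' windows and 2.7% of all windows. The MITF-type word TCATGTG or CACATGA was in 3.2% and 3.0%. The 120 bases before the start are shown for 4 carriers that moved at least 2-fold with shFHL2 in both lines and that hold the CCAAT word there, with CCAAT in capitals. They are the glutamine carrier SLC1A5 (chr19:46788595-46788714, minus strand), the glucose carrier SLC2A1 (chr1:42958869-42958988, minus strand), the aromatic amino acid carrier SLC16A10 (chr6:111087383-111087502, plus strand) and the iron carrier SLC11A2 (chr12:51026385-51026504, minus strand, with 2 words).
SLC1A5: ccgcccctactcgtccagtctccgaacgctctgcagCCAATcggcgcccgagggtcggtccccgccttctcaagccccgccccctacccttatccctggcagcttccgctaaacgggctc
SLC2A1: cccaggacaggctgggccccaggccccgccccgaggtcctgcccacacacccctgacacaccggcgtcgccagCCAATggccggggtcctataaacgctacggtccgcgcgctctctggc
SLC16A10: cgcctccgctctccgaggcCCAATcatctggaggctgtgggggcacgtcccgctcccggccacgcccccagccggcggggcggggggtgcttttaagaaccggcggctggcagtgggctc
SLC11A2: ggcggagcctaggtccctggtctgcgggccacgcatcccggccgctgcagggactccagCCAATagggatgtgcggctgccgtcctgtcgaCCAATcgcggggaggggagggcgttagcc

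Some facts of the arrays bear on what follows. The replicate 3 array of C32 GFP deviated very little from the average of the other arrays of its group: across 17311 probe sets the SD was 0.00758, while every other array gave 0.115 to 0.173 by the same measure, so it was left out and C32 GFP values are those of 2 arrays. Replicate 3 of A375M2 PMEL and replicate 3 of A375M2 GFP deviated from their groups as mirror images (r = -0.998 across probe sets, which are not independent replicates), which touches the PMEL comparison most. The lowest value was 0.53 in the 6 A375M2 hairpin arrays, 0.60 in the 6 A375M2 PMEL and GFP arrays and 1.41 to 2.01 in C32. Array sets were read from these lowest values alone, as the sample labels give no batch. A375M2 hairpin arrays differ from A375M2 GFP arrays in set as well as in hairpin, so that comparison does not separate them. A375M2 PMEL against A375M2 GFP and A375M2 shFHL2 against A375M2 shNFYA each compare arrays with the same lowest value. In C32 the lowest value varied, so whether C32 shFHL2 and C32 GFP belong to a single set was not established. The FHL2 mean was 7.17 in A375M2 shFHL2 and 11.21 in A375M2 GFP cells, and 5.83 in C32 shFHL2 and 11.08 in C32 GFP cells. The NFYA mean was 7.52 in A375M2 shNFYA and 9.59 in A375M2 GFP cells, and the PMEL mean was 8.95 in A375M2 PMEL and 5.57 in A375M2 GFP cells. Of 10 melanocyte markers 9 were measured, and log2 4 was reached by 4 with A375M2 shFHL2, 5 with A375M2 shNFYA, 8 with A375M2 PMEL, 8 with A375M2 GFP and 8 in each C32 group. Their summed level was 57.4 to 57.8 in A375M2 shFHL2 cells, 54.8 to 56.2 in A375M2 shNFYA cells, 83.8 to 84.5 in A375M2 PMEL cells and 79.5 to 79.8 in A375M2 GFP, and in C32 it was 88.4 to 88.7 with shFHL2 and 105 with GFP. SOX10 was present in all groups (11.8 to 12.9), while TYR and MLANA were high in C32 only, the A375M2 means being at most 4.44 and 2.38. GPR143 went the other way: it averaged 8.18 in A375M2 GFP and 9.69 in A375M2 PMEL. In both A375M2 hairpin groups and both C32 groups it averaged 2.18. MITF, the regulator of pigment genes, averaged 10.1 with A375M2 shFHL2, 8.95 with A375M2 shNFYA and 14.2 in A375M2 GFP cells, and 14.2 in C32 shFHL2 and 15.0 in C32 GFP cells. The 6 measured of 7 fibroblast markers summed to 30.2 to 30.4 with A375M2 shFHL2, 30.6 to 31.3 with A375M2 shNFYA, 36.1 to 36.4 with A375M2 PMEL and 40.9 to 41.2 in A375M2 GFP, and to 38.2 to 38.6 in C32 shFHL2 and 37.6 to 38.6 in C32 GFP. Within that list COL1A1 averaged 7.05 with A375M2 shFHL2, 6.78 with A375M2 shNFYA and 5.77 in A375M2 GFP, while LUM averaged 7.37, 7.50 and 11.1 in the same order. The 3 measured of 8 keratinocyte and epithelium markers summed to 20.3 to 20.5 with A375M2 shFHL2, 21.6 to 22.4 with A375M2 shNFYA, 17.1 to 17.4 with A375M2 PMEL and 17.2 to 17.4 in A375M2 GFP, and to 7.6 to 7.93 in C32 shFHL2 and 7.72 to 7.93 in C32 GFP. The leukocyte marker PTPRC was at 2.28 or below in A375M2 and 7.67 to 8.65 in C32. The part of these markers in the carrier results was not tested, and in RNA of whole cultures fewer cells of a kind and less RNA per cell cannot be told apart.

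The FHL2 hairpins were used in both lines, which asks whether the carriers responded alike in cells that share no arrays. A carrier was called at a Benjamini-Hochberg adjusted p under 0.05 over all 10935 genes. In A375M2, 159 of 185 carriers were called with shFHL2 (85.9%, against 85.4% of all genes), 76 higher and 83 lower (41.1% and 44.3% of all genes). Of these, 70 were at least 2-fold (37.8%, against 31.4% of all genes), 32 higher and 38 lower (15.2% and 16.2% of all genes). In C32, 108 were called (58.4%, against 62.6% of all genes), 45 higher and 63 lower (32.3% and 30.4% of all genes). At least 2-fold were 20 (10.8%, against 8.56% of all genes), 7 higher and 13 lower (3.52% and 5.04% of all genes). The carriers' share thus lay near the background in each line. The response in C32 less that in A375M2 was called for 154 carriers (83.2%, against 80.2% of all genes), positive for 72 and negative for 82 (42.1% and 38.1% of all genes). It was at least 2-fold for 77 (41.6%, against 34% of all genes), positive for 37 and negative for 40 (17.3% and 16.7% of all genes). The lines differed in the direction taken by the strongest responders. Of the 11 carriers that moved at least 2-fold in both lines, 9 (81.8%) moved in opposite directions, against 152 of 432 among all genes (35.2%). Of the 88 called in both lines at any size, 42 (47.7%) moved in opposite directions, against 41.6% of 5863 genes. With signals under log2 4 set to 4, 7 of 9 were opposite, because SLC16A10 in A375M2 and SLC44A5 in C32 lie near that level. The count was 8 without A375M2 GFP replicate 1, which leaves out SLC16A4, or without C32 GFP replicate 2, which leaves out SLC44A5.

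**Figure D1:**
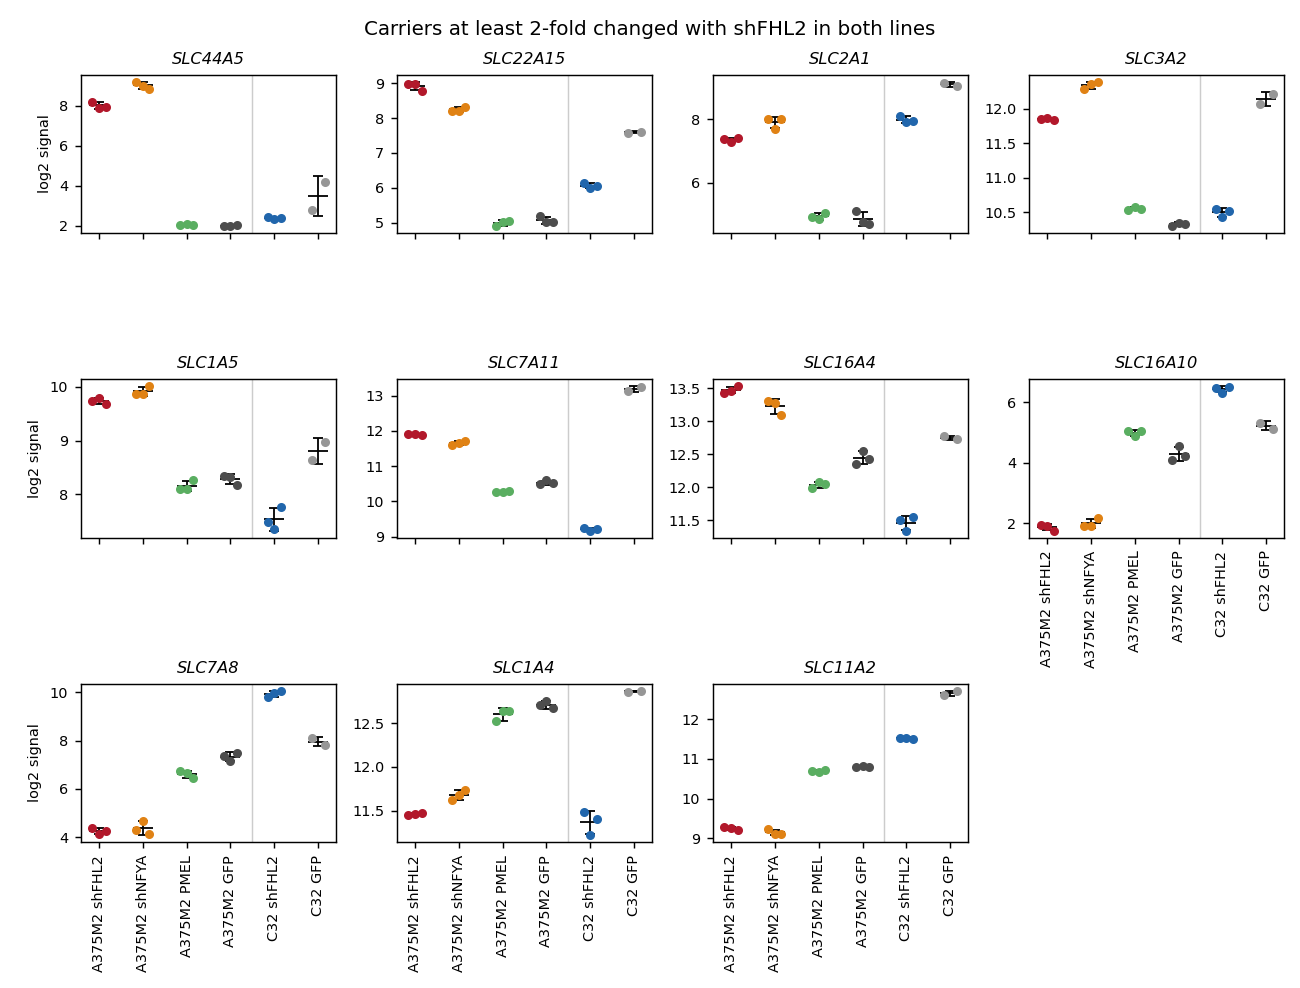
Log2 signal (vertical axis, own scale in each panel) of the 11 carriers that moved at least 2-fold with shFHL2 in both lines; each point is an array, and bars show the mean and SD of the 3 arrays of a group (2 for C32 GFP). SLC7A11 is near 11.9 in A375M2 shFHL2 and 10.5 in A375M2 GFP, but near 9.2 in C32 shFHL2 and 13.2 in C32 GFP.

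The cystine carrier SLC7A11 showed the deepest fall with shFHL2 in C32. It read 9.23, 9.17 and 9.22 in C32 shFHL2, against 13.13 and 13.24 in C32 GFP, and 11.92, 11.90 and 11.88 in A375M2 shFHL2, against 10.48, 10.59 and 10.52 in A375M2 GFP. In neither line did the groups overlap, and they stood in opposite order. The fall in C32 was -3.98 ± 0.044 on the log2 scale (SE, 15.8-fold, adjusted p = 1.75e-20), and the rise in A375M2 was 1.37 ± 0.0394 (2.59-fold, adjusted p = 7.68e-16). The response in C32 less that in A375M2 was -5.35 ± 0.059 (adjusted p = 7.22e-21).

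Its heavy subunit SLC3A2 followed the same course. SLC3A2 read 10.54, 10.43 and 10.52 in C32 shFHL2, against 12.07 and 12.21 in C32 GFP, and 11.85, 11.86 and 11.83 in A375M2 shFHL2, against 10.30, 10.35 and 10.33 in A375M2 GFP. It fell by 1.64 ± 0.0458 in C32 (SE, adjusted p = 6.23e-15) and rose by 1.52 ± 0.041 in A375M2 (adjusted p = 3.18e-16). The arrays with the hairpins lay below all GFP arrays in C32 and above all of them in A375M2. The difference between the responses was -3.16 ± 0.0615 (adjusted p = 1.31e-17).

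SLC1A5, which carries glutamine and other neutral amino acids and whose promoter letters are shown above, read 7.48, 7.36 and 7.77 in C32 shFHL2, against 8.63 and 8.98 in C32 GFP. In A375M2 it read 9.73, 9.79 and 9.68 with shFHL2, against 8.34, 8.33 and 8.17 with GFP. Again the groups were apart in both lines, with a log2 fold change of -1.27 ± 0.111 in C32 (SE, adjusted p = 1.97e-08) and 1.46 ± 0.099 in A375M2 (adjusted p = 1.73e-10). Its response differed between the lines by -2.72 ± 0.148 (adjusted p = 1.37e-11).

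Other carriers of the same pathway moved the same way but less in C32. SLC7A5, the large neutral amino acid light chain, read 10.75, 10.91 and 10.89 in C32 shFHL2 and 11.36 and 11.42 in C32 GFP, against 12.62, 12.73 and 12.70 in A375M2 shFHL2 and 10.78, 10.60 and 10.70 in A375M2 GFP. Its log2 fold change was -0.54 ± 0.0529 in C32 (SE, adjusted p = 8.3e-08) and 1.99 ± 0.0473 in A375M2 (adjusted p = 5.57e-17). The arginine and lysine carrier SLC7A1 fell by 0.52 in C32 and rose by 2.03 in A375M2, and the glutamine carrier SLC38A1 fell by 0.17 in C32 and rose by 2.50 in A375M2, all called. The difference between the lines was -2.54 for SLC7A1 and -2.68 for SLC38A1, both called as well.

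Of 11 carriers known as ATF4 targets, 9 were measured and tested. With shFHL2 in A375M2, 7 rose and 2 fell (41.1% and 44.3% of all genes) with a median log2 fold change of 1.46, against -0.04 over all genes. With shFHL2 in C32, 0 rose and 8 fell (32.3% and 30.4% of all genes) with a median of -0.54, against 0.00 over all genes, and without C32 GFP replicate 1 these counts were 1 and 7. The response in C32 was below that in A375M2 for 8 of the 9 and above it for 1. The 2 that fell in A375M2 were the neutral amino acid carrier SLC1A4 and the branched-chain amino acid carrier SLC43A1. SLC43A1 was the only one of the 9 not called in C32 (0.12 ± 0.196, SE, adjusted p = 0.644). The glutamine carrier SLC38A2 was called in both lines at small sizes (0.12 and -0.20), its arrays lying between 14.58 and 14.76 in A375M2 shFHL2 and GFP and between 14.23 and 14.49 in C32 shFHL2 and GFP. SLC1A4 departed from the list: it read 11.48, 11.22 and 11.40 in C32 shFHL2, against 12.86 and 12.87 in C32 GFP, and 11.45, 11.46 and 11.47 in A375M2 shFHL2, against 12.71, 12.76 and 12.67 in A375M2 GFP. It fell by 1.5 ± 0.0592 in C32 and by 1.25 ± 0.0529 in A375M2 (SE, adjusted p = 6.16e-13 and 1.87e-13), with hairpin arrays below GFP arrays in both lines.

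**Figure D2:**
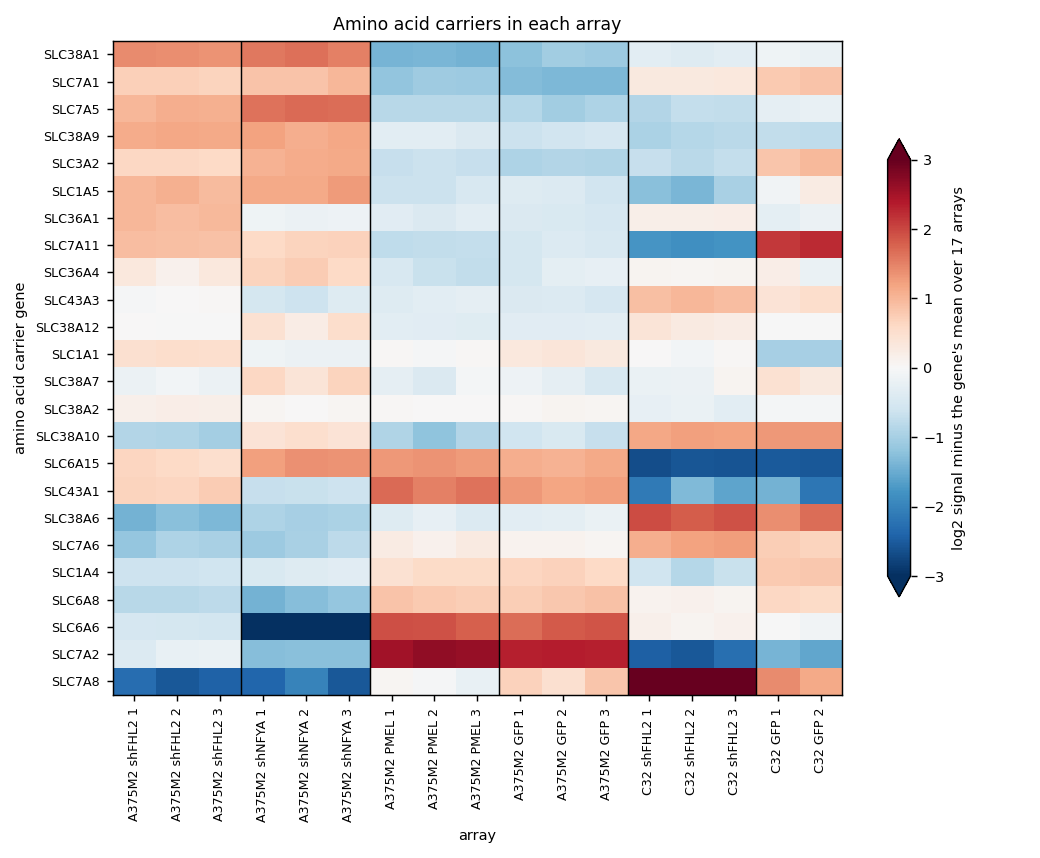
The 24 amino acid carrier genes (vertical axis) in each of the 17 fitted arrays (horizontal axis); colour is log2 signal minus the gene's mean over those arrays, red above and blue below. SLC7A11, SLC3A2 and SLC1A5 are redder in A375M2 shFHL2 than in A375M2 GFP and bluer in C32 shFHL2 than in C32 GFP, while SLC7A8 runs the other way.

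Genes outside the family that work with these carriers were described from a list of 10 for amino acid stress and glutathione, of which 9 were tested. With shFHL2 in A375M2, 8 rose and 0 fell; with shFHL2 in C32, 1 rose and 4 fell, beside the same shares of all genes. ASNS, which makes asparagine and is a textbook ATF4 target, read 9.51, 9.45 and 9.41 in C32 shFHL2, against 12.17 and 12.16 in C32 GFP, and 14.10, 14.13 and 14.14 in A375M2 shFHL2, against 10.34, 10.24 and 10.33 in A375M2 GFP. Its groups were far apart in both lines and in opposite order, with log2 fold changes of -2.70 ± 0.0402 in C32 and 3.82 ± 0.036 in A375M2 (SE, adjusted p = 9.39e-19 and 2.9e-22). ATF4 itself fell by 0.46 in C32 and rose by 1.93 in A375M2, and TRIB3, another ATF4 target, fell by 0.65 in C32 and rose by 2.45 in A375M2. GOT1, which makes aspartate, rose by 2.52 in A375M2, and its log2 fold change in C32 was 0.09 ± 0.0501 (SE, adjusted p = 0.116). Whether ATF4 has a part in the carriers' levels was not tested.

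SLC7A8, a light chain of SLC3A2 for neutral amino acids, moved against its partner. It read 9.81, 9.98 and 10.05 in C32 shFHL2, against 8.10 and 7.82 in C32 GFP, and 4.38, 4.12 and 4.25 in A375M2 shFHL2, against 7.36, 7.16 and 7.50 in A375M2 GFP. The groups did not overlap in either line, and the log2 fold change was 1.98 ± 0.152 in C32 and -3.09 ± 0.136 in A375M2 (SE, adjusted p = 3.56e-09 and 3.34e-13). SLC7A8 has 3 probe sets: all gave a rise in C32 (1.67 to 2.15), but in A375M2 they gave -3.09, -2.99 and 0.34, so its direction there depends on the probe set.

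The aromatic amino acid carrier SLC16A10, a member of the monocarboxylate family, read 6.46, 6.32 and 6.51 in C32 shFHL2, against 5.33 and 5.12 in C32 GFP. In A375M2 it read 1.96, 1.91 and 1.76 with shFHL2, against 4.10, 4.54 and 4.24 with GFP, so that the A375M2 hairpin arrays lay near the lowest values of their set. It rose by 1.20 ± 0.14 in C32 and fell by 2.42 ± 0.125 in A375M2 (SE, adjusted p = 7.34e-07 and 3.43e-12), and the fall was 0.29 with signals under log2 4 set to 4. SLC16A4, an orphan of that family, read 11.50, 11.34 and 11.54 in C32 shFHL2, against 12.77 and 12.73 in C32 GFP, and 13.43, 13.46 and 13.53 in A375M2 shFHL2, against 12.35, 12.55 and 12.43 in A375M2 GFP. Its log2 fold change was -1.29 ± 0.0662 in C32 and 1.03 ± 0.0592 in A375M2 (SE, adjusted p = 1.78e-11 and 1.53e-11), with the groups apart in both lines.

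Among the sugar carriers the basal glucose carrier SLC2A1 read 8.12, 7.90 and 7.95 in C32 shFHL2, against 9.16 and 9.04 in C32 GFP. In A375M2 it read 7.38, 7.27 and 7.40 with shFHL2, against 5.10, 4.75 and 4.70 with GFP. The hairpin arrays were thus low in C32 and high in A375M2, by -1.11 ± 0.127 and 2.50 ± 0.113 on the log2 scale (SE, adjusted p = 5.68e-07 and 5.23e-13), and the responses differed by -3.61 ± 0.17 (adjusted p = 1.81e-12). SLC2A3, the high-affinity glucose carrier, read 10.58, 10.55 and 10.59 in C32 shFHL2, against 11.51 and 11.61 in C32 GFP, a fall of 0.99 ± 0.0577 (SE, adjusted p = 1.03e-10). In A375M2 its hairpin arrays (9.57, 9.51 and 9.50) overlapped the GFP arrays (9.43, 9.60 and 9.50), with a log2 fold change of 0.02 ± 0.0516 (SE, adjusted p = 0.789). These are the 2 tested of 4 glucose and lactate carriers known as targets of the hypoxia factor HIF-1.

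Of 12 partner genes of glucose and lactate use, 11 were tested; 5 rose and 3 fell with shFHL2 in C32 (32.3% and 30.4% of all genes), and 3 rose and 7 fell in A375M2 (41.1% and 44.3% of all genes). The arrestin-like protein TXNIP, which withdraws SLC2A1 from the cell surface and whose transcript is known to follow glucose supply, read 11.65, 11.62 and 11.65 in C32 shFHL2, against 3.82 and 3.49 in C32 GFP. It read 12.49, 12.39 and 12.47 in A375M2 shFHL2, against 12.78, 12.67 and 12.79 in A375M2 GFP. TXNIP was at the low end in C32 GFP alone, and its log2 fold change was 7.98 ± 0.0669 in C32 and -0.30 ± 0.0598 in A375M2 (SE, adjusted p = 2.45e-22 and 0.000176). Its relative ARRDC4 rose by 2.33 in C32 and fell by 0.71 in A375M2. BSG, the chaperone of lactate carriers, rose by 0.40 in C32 and fell by 1.97 in A375M2, and HIF1A fell by 0.35 in C32 and rose by 0.32 in A375M2.

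SLC11A2, which brings iron into the cytosol, was lower with the hairpins in both lines. It read 11.53, 11.53 and 11.49 in C32 shFHL2, against 12.61 and 12.70 in C32 GFP, and 9.28, 9.26 and 9.21 in A375M2 shFHL2, against 10.80, 10.83 and 10.79 in A375M2 GFP. The falls were -1.14 ± 0.0435 in C32 and -1.56 ± 0.0389 in A375M2 on the log2 scale (SE, adjusted p = 4.03e-13 and 1.1e-16), without overlap of groups. The transferrin receptor TFRC, through which most cells take up iron, moved otherwise: it rose by 0.72 in C32 and fell by 0.40 in A375M2.

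The zwitterion carrier SLC22A15 read 6.15, 5.98 and 6.06 in C32 shFHL2, against 7.58 and 7.61 in C32 GFP, and 8.99, 8.99 and 8.78 in A375M2 shFHL2, against 5.19, 5.01 and 5.01 in A375M2 GFP. Its log2 fold change was -1.53 ± 0.0978 in C32 and 3.85 ± 0.0875 in A375M2 (SE, adjusted p = 3.25e-10 and 2.88e-17), so its groups were apart in opposite order. The choline-like carrier SLC44A5 read 8.21, 7.90 and 7.93 in A375M2 shFHL2, against 1.99, 1.99 and 2.04 in A375M2 GFP, a rise of 6.01 ± 0.224 (SE, adjusted p = 3.17e-14). It read 2.41, 2.35 and 2.36 in C32 shFHL2, against 2.78 and 4.18 in C32 GFP, where the fall of 1.11 rests on GFP replicate 2. With signals under log2 4 set to 4, the rise in A375M2 was 4.01 and the fall in C32 was 0.09.

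**Figure D3:**
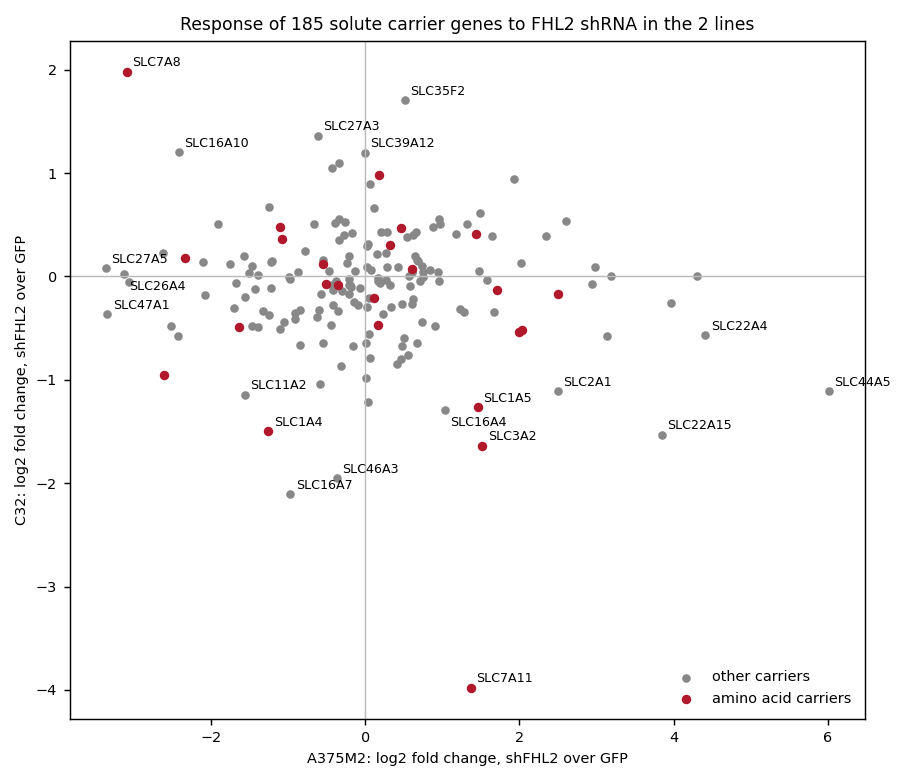
Log2 fold change with shFHL2 over GFP in A375M2 (horizontal axis) and in C32 (vertical axis) for the 185 tested carriers, amino acid carriers in red and the others in grey. SLC7A11, SLC3A2, SLC1A5, SLC2A1 and SLC22A15 lie at the lower right, and SLC7A8 and SLC16A10 at the upper left.

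Other carriers moved in C32 without the same size of change in A375M2. The monocarboxylate carrier SLC16A7 read 2.05, 2.06 and 2.06 in C32 shFHL2, against 4.47 and 3.86 in C32 GFP. The fall of 2.11 ± 0.14 (SE, adjusted p = 5.4e-10) lies near the floor of the arrays, and with signals under log2 4 set to 4 it was 0.23 (adjusted p = 0.113); with the largest-variance probe set it was 0.31 and over the mean of all probe sets 0.66. SLC46A3, a carrier of the lysosomal membrane, read 4.20, 4.73 and 4.70 in C32 shFHL2, against 6.35 and 6.65 in C32 GFP, a fall of 1.95 ± 0.153 (SE, adjusted p = 4.66e-09). Among the rises, SLC35F2 gained 1.71, SLC27A3 1.36, SLC39A12 1.20 and SLC35F1 1.10 on the log2 scale in C32, all called. SLC35F1 was under log2 4 in C32 GFP, and its rise was 0.67 with signals under log2 4 set to 4 and 0.93 to 0.98 without C32 GFP replicate 2 or C32 shFHL2 replicate 1 or 3. SLC27A3 belongs to the fatty acid carrier family, and SLC39A12 imports zinc. SLC39A12 read 11.23, 11.23 and 11.19 in C32 shFHL2, against 9.92 and 10.12 in C32 GFP, while all A375M2 arrays lay at 2.20 or 2.21.

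Roles were assigned by SLC family. In A375M2 carriers were called in both directions with shFHL2 in every role class but that of the vitamin families. This class held SLC19A1, SLC19A2, SLC23A2, SLC46A1, SLC46A3 and SLC52A2. All 6 fell, against 44.3% of all genes, 3 of them at least 2-fold, with a median log2 fold change of -0.89, against -0.04 over all genes. SLC19A1 was among those 3, but its 2 probe sets gave opposite signs in A375M2, so its fall depends on the probe set. In C32, 0 of the 6 rose and 4 fell, against 32.3% and 30.4% of all genes. This grouping by family puts the lysosomal SLC46A3 with the vitamin carriers, the multivitamin carrier SLC5A6 with the sugar carriers and the folate carrier SLC25A32 with the mitochondrial ones. SLC5A6 fell by 0.55 and SLC25A32 by 0.13 in A375M2, and in C32 their log2 fold changes were 0.16 (adjusted p = 0.0519) and 0.05 (adjusted p = 0.268). The ascorbate carrier SLC23A2 read 8.38, 8.47 and 8.54 in A375M2 shFHL2, against 10.79, 10.93 and 10.95 in A375M2 GFP, a fall of 2.42 ± 0.0574 (SE, adjusted p = 5.16e-17). In C32 it fell by 0.57 ± 0.0641 (SE, adjusted p = 4.59e-07). The folate carrier SLC46A1 fell by 0.55 in A375M2 and by 0.64 in C32.

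Of the 8 carriers of metals other than zinc and of heme, 6 rose and 1 fell in A375M2, against 41.1% and 44.3% of all genes, with a median of 0.82, against -0.04 over all genes. The copper importer SLC31A1 read 11.54, 11.58 and 11.53 in A375M2 shFHL2, against 8.76, 8.99 and 9.08 in A375M2 GFP. It rose by 2.61 ± 0.0842 (SE, adjusted p = 4e-15), and in C32 by 0.54 ± 0.0941 (SE, adjusted p = 7.44e-05). Of 10 partner genes of metal handling 8 were tested. In A375M2, 0 rose and 7 fell, beside the same 41.1% and 44.3% of all genes, including the metallothioneins MT1X (-1.29) and MT2A (-1.15), which bind zinc and copper. In C32, 1 rose and 6 fell, against 32.3% and 30.4% of all genes, MT1X by 0.26 and MT2A by 0.23.

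Of 14 zinc importers 12 were tested; in A375M2, 2 rose and 6 fell, against 41.1% and 44.3% of all genes, with a median of -0.25, against -0.04 over all genes. The share that fell was near the background. Among them SLC39A4 read 7.69, 7.65 and 7.70 in A375M2 shFHL2, against 9.44, 9.27 and 9.60 in A375M2 GFP (-1.76 ± 0.156, SE, adjusted p = 7.74e-09). SLC39A10 fell by 1.56 and SLC39A3 by 1.42, while SLC39A14 rose by 0.61 and SLC39A6, the importer with the highest mean signal, fell by 0.91. In C32, 4 importers rose and 3 fell, against 32.3% and 30.4% of all genes. Of 10 zinc exporters 6 were tested, with 3 rises and 2 falls in A375M2 and 2 rises and 3 falls in C32, beside the same shares of all genes. The Golgi exporter SLC30A5 rose by 0.75 in A375M2 and SLC30A4 by 0.67.

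The largest rises in A375M2 were mostly from low levels. SLC22A4, a carrier of ergothioneine and carnitine, read 7.17, 7.06 and 7.06 in A375M2 shFHL2, against 2.70, 2.76 and 2.60 in A375M2 GFP, a rise of 4.41 ± 0.144 (SE, adjusted p = 4.6e-15), which was 3.10 with signals under log2 4 set to 4. The hexose carrier family member SLC2A10 read 6.47, 6.73 and 6.32 in A375M2 shFHL2, against 2.21 in each A375M2 GFP array, near the lowest values there, so its rise is given as at least 2.51, the value with signals under log2 4 set to 4 (fitted 4.30). SLC25A45, of the mitochondrial family, read 7.52, 7.68 and 7.70 in A375M2 shFHL2, against 3.72, 3.72 and 3.57 in A375M2 GFP, a rise of 3.96. The urea channel SLC14A1 rose by 3.19, with values of 8.63, 8.79 and 8.96 in A375M2 shFHL2, against 5.40, 5.72 and 5.68 in A375M2 GFP. In C32 shFHL2 and C32 GFP, SLC22A4, SLC2A10, SLC25A45 and SLC14A1 lay under log2 4 in every fitted array.

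Among the falls, SLC27A5, an enzyme and carrier that activates bile acids and long fatty acids, read 6.99, 7.35 and 7.16 in A375M2 shFHL2, against 10.61, 10.44 and 10.54 in A375M2 GFP (-3.36 ± 0.0905, SE, adjusted p = 3.09e-16). The iodide and chloride exchanger SLC26A4 read 5.12, 5.05 and 5.04 in A375M2 shFHL2, against 8.21, 8.21 and 8.15 in A375M2 GFP (-3.12 ± 0.0615, SE, adjusted p = 3.88e-18). In C32, where SLC26A4 was higher, shFHL2 arrays (11.87, 11.80 and 11.77) overlapped GFP arrays (11.77 and 11.81). The organic cation exporter SLC47A1 fell by 3.34, with array values of 4.22, 3.12 and 4.64 in A375M2 shFHL2, against 7.35, 7.32 and 7.34 in A375M2 GFP. The sodium and calcium exchanger SLC24A2 fell by 3.07 and the choline-like SLC44A3 by 2.62, both to values of 2.4 or lower in A375M2 shFHL2. With signals under log2 4 set to 4 these falls were 1.38 for SLC24A2 and 0.99 for SLC44A3, the second under 2-fold. Of 9 fatty acid, choline and acetyl-CoA carriers, 2 rose and 7 fell, against 41.1% and 44.3% of all genes.

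**Figure D4:**
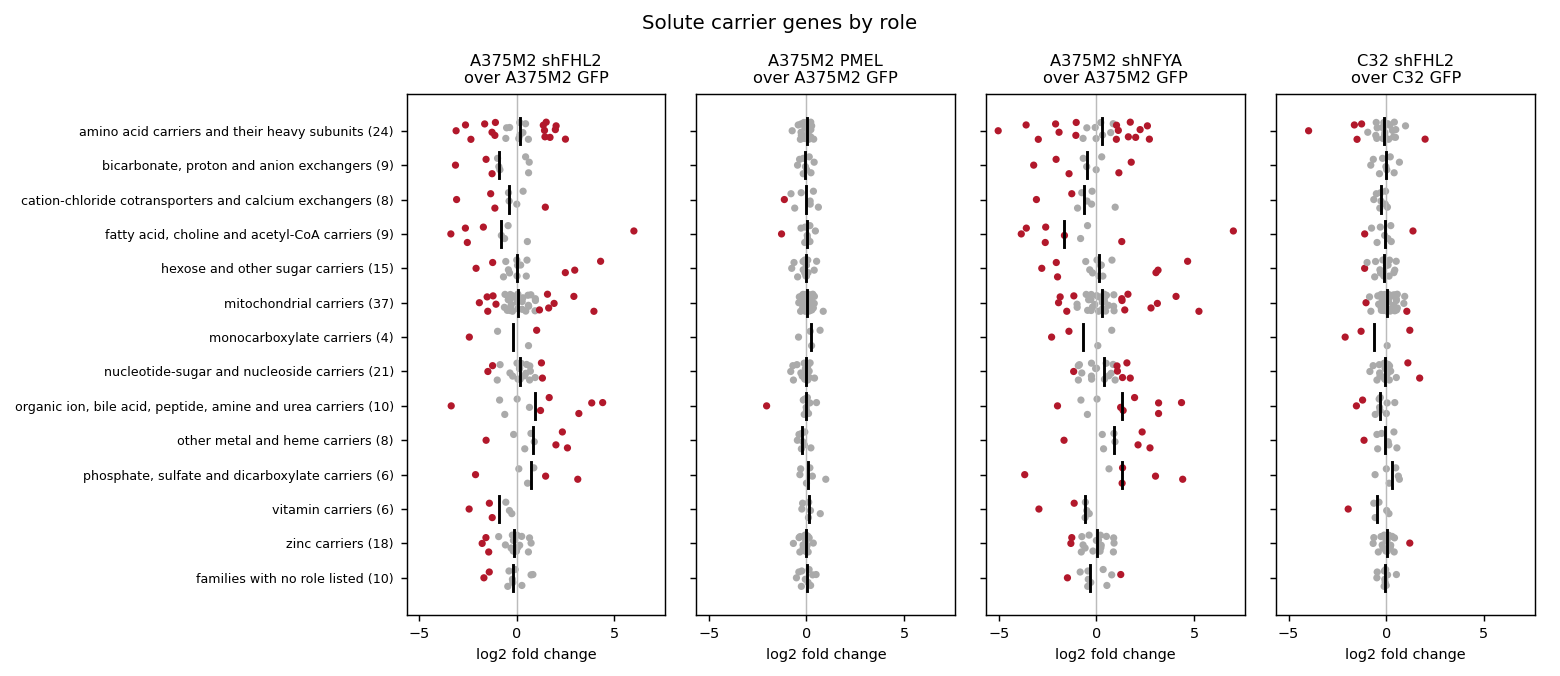
Log2 fold change (horizontal axis, shared) of each tested carrier by role (rows, number tested in brackets) in 4 comparisons, from left A375M2 shFHL2, PMEL and shNFYA over A375M2 GFP and C32 shFHL2 over C32 GFP. Red points were called and at least 2-fold, and black bars are medians; with PMEL only 3 points are red, and no vitamin carrier was called higher in either shFHL2 panel.

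The NFYA hairpins in A375M2 were set against the same GFP arrays, so their values stand beside those of shFHL2 and are not independent of them. With shNFYA 167 carriers were called (90.3%, against 86.8% of all genes), 88 higher and 79 lower (43.5% and 43.3% of all genes). At least 2-fold were 78 (42.2%, against 35.8% of all genes), 43 higher and 35 lower (17.3% and 18.5% of all genes). The 60 tested carriers with CCAAT in the promoter window had a median log2 fold change of 0.14, with 13 at least 2-fold higher and 10 lower. The 91 without it had a median of 0.30, with 24 higher and 16 lower. Carriers with and without the word therefore moved in both directions.

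The taurine carrier SLC6A6 fell furthest with shNFYA. It read 7.02, 7.01 and 6.67 in A375M2 shNFYA and 9.62, 9.59 and 9.57 in A375M2 shFHL2, against 11.80, 11.96 and 12.02 in A375M2 GFP. The log2 fold change against GFP was -5.03 ± 0.0769 with shNFYA and -2.33 ± 0.0769 with shFHL2 (SE, adjusted p = 8.19e-20 and 5.26e-15), and no arrays of these 3 groups overlapped. The arginine and lysine carrier SLC7A2 fell by 3.60 with shNFYA and by 2.61 with shFHL2, the phosphate carrier SLC20A2 by 3.67 and 2.10, and the fatty acid carrier SLC27A1 by 3.59 and 1.70. SLC27A5 fell by 3.85 and SLC26A4 by 3.21 with shNFYA. Rises with shNFYA included SLC25A45 (5.25) and SLC2A6 (4.67), which stood at 4.92 and 4.67 with signals under log2 4 set to 4. SLC44A5, SLC22A4 and SLC25A21 started under log2 4 in A375M2 GFP, so the sizes of their rises have no firm order: at that setting they were 5.02, 3.04 and 2.52, against fitted rises of 7.01, 4.36 and 4.08. SLC13A5 was under log2 4 in all groups but shNFYA, and is described where the hairpin pools are compared. The ATF4-linked carriers stood at 6 rises and 2 falls of 9 (43.5% and 43.3% of all genes), with a median of 1.64, against 0.00 over all genes. All 9 tested partner genes of amino acid stress and glutathione rose, ASNS by 3.51 and ATF4 by 1.87. All 6 vitamin carriers fell, against 43.3% of all genes, though the 2 probe sets of SLC46A1 gave opposite signs.

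A375M2 shFHL2 against A375M2 shNFYA compares hairpin with hairpin within an array set. Of the carriers, 127 were called (68.6%, against 70.1% of all genes), 47 higher and 80 lower with shFHL2 (31.8% and 38.4% of all genes). At least 2-fold were 23 (12.4%, against 10.4% of all genes), 12 higher and 11 lower (6.37% and 4.01% of all genes). Of the 60 tested carriers with CCAAT in the promoter window, 5 were at least 2-fold higher and 5 lower with shFHL2. Of the 91 without it, 3 were higher and 5 lower, so carriers with and without the word lay on both sides. The word was present in 39.7% of all carriers' windows. Of the 6 largest rises in this comparison, the word was found in the window of SLC27A1 alone. The rises and falls were picked by size from these data, and whether the word has a part in them was not tested. Among the 6 largest falls in this comparison 4 promoters hold CCAAT or ATTGG, and 3 are shown with that word in capitals. The other is that of SLC38A10 (-1.37), which is not shown because its other probe set gave -0.05. They are the lysosomal hexose carrier SLC2A6 (chr9:133479100-133479219, minus strand, with a word of each orientation), the citrate carrier SLC13A5 (chr17:6713370-6713489, minus strand) and the mitochondrial phosphate carrier SLC25A3 (chr12:98593566-98593685, plus strand), in GRCh38.p14 from RefSeq.
SLC2A6: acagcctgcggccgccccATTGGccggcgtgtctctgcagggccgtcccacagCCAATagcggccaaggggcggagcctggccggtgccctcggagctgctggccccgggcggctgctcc
SLC13A5: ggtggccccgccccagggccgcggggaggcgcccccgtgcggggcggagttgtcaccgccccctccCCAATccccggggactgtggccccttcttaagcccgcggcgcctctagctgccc
SLC25A3: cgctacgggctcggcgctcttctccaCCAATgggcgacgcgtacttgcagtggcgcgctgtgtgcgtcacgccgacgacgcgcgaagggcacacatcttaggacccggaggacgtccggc

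SLC13A5 read 2.59, 3.30 and 2.43 in A375M2 shFHL2, against 6.32, 7.01 and 6.54 in A375M2 shNFYA, and every array of the other groups lay at 2.20 or 2.21. It entered the tests through shNFYA alone, the group where it is high, so it is given as a description: with signals under log2 4 set to 4 the difference was -2.62. SLC2A6 read 7.27, 7.03 and 7.22 in A375M2 shFHL2, against 8.86, 9.0 and 8.73 in A375M2 shNFYA (-1.69 ± 0.0955, SE, adjusted p = 4.5e-11). Both lay above A375M2 GFP, whose arrays read 4.20, 4.20 and 4.19. SLC25A3 read 8.03, 8.0 and 7.91 in A375M2 shFHL2, against 9.29, 9.11 and 9.14 in A375M2 shNFYA (-1.20 ± 0.11, SE, adjusted p = 2.81e-08).

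On the other side, SLC6A6 was 2.69 ± 0.0769 higher with shFHL2 than with shNFYA on the log2 scale (SE, adjusted p = 5.22e-15), SLC27A1 was 1.89 higher, SLC20A2 1.57 (0.87 over the mean of its probe sets) and SLC43A1 1.36. The calcium exchanger SLC24A3 read 10.83, 10.88 and 10.87 in A375M2 shFHL2, against 9.16, 9.16 and 9.17 in A375M2 shNFYA (1.69 ± 0.0644, SE, adjusted p = 2.19e-13), and 9.38, 9.39 and 9.38 in A375M2 GFP, so it rose with shFHL2 by 1.47 and fell with shNFYA by 0.22. The sugar phosphate carrier SLC37A2 was 1.58 higher with shFHL2 than with shNFYA. Of 37 mitochondrial carriers 6 were higher and 19 lower with shFHL2 than with shNFYA, against 31.8% and 38.4% of all genes, with a median of -0.22, against -0.03 over all genes. Of 12 zinc importers 1 was higher and 9 were lower, with a median of -0.28.

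PMEL changed few carriers by size. Of the carriers, 81 were called (43.8%, against 39.9% of all genes), 33 higher and 48 lower (22.1% and 17.8% of all genes). At least 2-fold were 3 carriers (1.62%, against 2.13% of all genes), 0 higher and 3 lower (0.512% and 1.62% of all genes). Without replicate 3 of both groups, 62 were called, and 4 were at least 2-fold, 1 higher and 3 lower. The shares of all genes above come from the fit that includes those arrays. The lower count is therefore not read as a result about the carriers. SLC14A1 read 3.69, 3.52 and 3.48 in A375M2 PMEL, against 5.40, 5.72 and 5.68 in A375M2 GFP (-2.04 ± 0.113, SE, adjusted p = 3.21e-10), the opposite direction to its rise with either hairpin pool. With signals under log2 4 set to 4 its log2 fold change with PMEL was -1.60. SLC44A3 read 3.86, 3.76 and 3.54 in A375M2 PMEL, against 4.84, 4.97 and 5.17 in A375M2 GFP (-1.27 ± 0.105, SE, adjusted p = 5.66e-08), but with signals under log2 4 set to 4 the fall was 0.99, under 2-fold, which left 2 carriers past that size. The potassium and chloride cotransporter SLC12A7 read 8.06, 8.30 and 8.06 in A375M2 PMEL, against 9.19, 9.27 and 9.36 in A375M2 GFP (-1.13 ± 0.0808, SE, adjusted p = 9.71e-09). In each case all PMEL arrays lay below all GFP arrays. The cystine carrier SLC7A11, the only measured gene of 4 listed for melanosome pigment cells, fell by 0.26 ± 0.0394 with PMEL (SE, adjusted p = 4.99e-05). TXNIP read 13.17, 13.20 and 13.12 in A375M2 PMEL, against 12.78, 12.67 and 12.79 in A375M2 GFP, and SLC2A3 rose by 0.52 ± 0.0516 (SE, adjusted p = 4.81e-07).

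The GFP cells of the lines differed in many carriers before any hairpin. Between C32 GFP and A375M2 GFP, 161 carriers were called (87%, against 85.9% of all genes), 90 higher and 71 lower in C32 (38.7% and 47.2% of all genes). At least 2-fold were 85 (45.9%, against 43.1% of all genes), 46 higher and 39 lower (18.3% and 24.8% of all genes). The median log2 difference was 0.15 over the carriers and -0.10 over all genes. This comparison shares the GFP arrays of both lines with the hairpin comparisons and crosses array sets. SLC39A12, SLC15A3 and SLC2A8 had means of log2 4 or more in the C32 groups only, and SLC27A5, SLC24A3 and SLC16A5 in the A375M2 groups only.

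The zinc importer SLC39A12 stood 7.81 ± 0.093 higher in C32 GFP than in A375M2 GFP (SE, adjusted p = 2.19e-21). The dicarboxylate carrier SLC13A3 read 8.10 and 7.95 in C32 GFP, against 3.12, 3.69 and 3.82 in A375M2 GFP (4.48 ± 0.187, SE, adjusted p = 1.09e-13). SLC2A1 was 4.25 ± 0.127 higher in C32 GFP (SE, adjusted p = 8.42e-16), with the array values given above, and the amino acid carriers SLC7A11 and SLC7A1 were 2.66 and 2.15 higher. SLC2A6 was 3.67 higher, SLC26A4 3.60 and the peptide carrier SLC15A3 3.66, or 1.84 for SLC15A3 with signals under log2 4 set to 4. SLC2A1, SLC7A11, SLC3A2 and SLC7A1 were thus lower in A375M2 GFP than in C32 GFP cells. With shFHL2 they were higher than with GFP in A375M2 and lower than with GFP in C32. These differences share the same GFP arrays, and in A375M2 hairpin and array set are not separated. In shFHL2 cells SLC2A1 read 7.90 to 8.12 in C32 and 7.27 to 7.40 in A375M2. SLC7A11 and SLC3A2, by the array values given above, were lower in C32 shFHL2 than in A375M2 shFHL2 cells.

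SLC27A5 read 2.49 in both C32 GFP arrays, against 10.61, 10.44 and 10.54 in A375M2 GFP (-8.04 ± 0.101, SE, adjusted p = 4.68e-21). SLC24A3 was lower in C32 GFP by -7.02 ± 0.072 (SE, adjusted p = 3.26e-22), and the monocarboxylate carriers SLC16A5 by -5.89 and SLC16A7 by -5.62. SLC35F1 was lower by -4.74 and SLC47A1 by -4.33. EMB, a chaperone of monocarboxylate carriers, read 2.79 and 2.92 in C32 GFP, against 10.00, 9.91 and 10.00 in A375M2 GFP. Of 6 zinc exporters 1 was higher and 5 were lower in C32 GFP, and of 8 carriers of other metals and heme 5 were higher, SLC31A1 by 1.87, and 0 lower, against 38.7% and 47.2% of all genes.

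**Figure D5:**
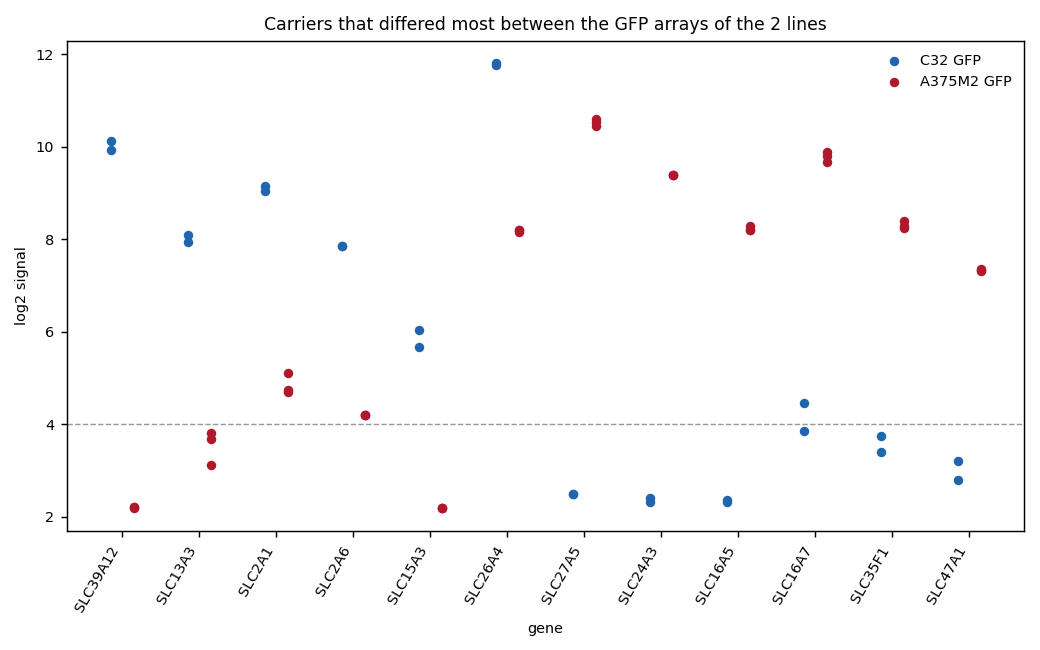
Log2 signal (vertical axis) of the 6 carriers highest and the 6 lowest in C32 GFP relative to A375M2 GFP (horizontal axis); each point is an array, blue for C32 GFP (2 arrays) and red for A375M2 GFP (3 arrays), and the dashed line marks log2 4. SLC39A12, SLC13A3 and SLC15A3 lie under the line in A375M2, and SLC27A5, SLC24A3, SLC16A5, SLC35F1 and SLC47A1 under it in C32.

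Over the 6 groups the carriers' group means spanned a median range of 1.95 on the log2 scale, against 1.69 over all genes, and 45 carriers (23.7%) spanned 8-fold or more, against 21.2% of all genes. The widest was SLC39A12, with a range of 9.01. Carriers with the highest mean signal of their role ranged from steady to variable, SLC25A5 spanning 0.54 over the group means, SLC26A2 2.4 and SLC20A1 2.62. The adenine nucleotide carrier SLC25A5 averaged 14.4 in A375M2 shFHL2 and 14.6 in A375M2 GFP, and 14.7 in C32 shFHL2 and 14.8 in C32 GFP. The phosphate carrier SLC20A1 averaged 14.8 with A375M2 shFHL2, 14.6 with A375M2 shNFYA and 13.3 with A375M2 GFP, and 12.8 in C32 shFHL2 and 12.1 in C32 GFP, so it rose with shFHL2 in both lines (1.49 and 0.61, adjusted p = 5.4e-17 and 3.61e-10). The sulfate carrier SLC26A2 moved in opposite directions, with a rise of 0.47 in A375M2 and a fall of 0.80 in C32 (adjusted p = 1.03e-09 and 1.41e-11).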

How the data were processed

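Total RNA of 18 samples was measured on Affymetrix 3′ arrays. The authors deposited log2 values, for which the submitters' processing notes name GCRMA; the sources used here give no version. Groups were taken from the labels, and all columns were matched to samples (0 unmatched). Of 23416 probe sets, 58 were controls, 20264 had 1 gene symbol, 995 several and 2099 none; symbols were updated by gene ID for 20254. Per gene, 1 probe set was kept, that of the highest mean over all arrays. Probe sets with several symbols were left out, and 16 of these hold a symbol that begins with SLC and a number. Some of the 16 hold no carrier by the symbol rule, such as those of SLC7A5P1 and SLC9A3-OT1. The 190 carriers had 335 probe sets, and 84 had more than 1. Probe sets of a gene that disagree in sign are named where they concern a named value, or are SLC19A1 and SLC35B3 (A375M2 shFHL2), SLC16A7, SLC35B3, SLC35F5, SLC38A10, SLC46A1, SLC4A7, SLC7A6 and SLC7A8 (shNFYA), SLC30A1, SLC38A10 and SLC44A5 (between lines), and SLC4A7 and SLC60A2 (shFHL2 against shNFYA).

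In R 4.3.3, limma 3.58.1 was fitted to the 17 arrays with a mean per group (lmFit, then eBayes with trend, 11 residual degrees of freedom). The p-values were adjusted by Benjamini-Hochberg over 10935 genes, each with log2 4 or more in at least 3 arrays. The pipeline was tested on simulated data. A fold change is on the GCRMA log2 scale. The number of arrays limits the precision: the median SE of a difference was 0.078 among A375M2 groups, 0.087 for C32 shFHL2 against C32 GFP and 0.12 for the difference of responses. Alternatives were other filters, a floor, centring, probe set choices, variance models, array sets, leaving out each array, and the replicate number as a block.

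The members, lists and rules were chosen with earlier results of these data known. Named were the 6 largest rises and falls per comparison among carriers at least 2-fold changed with groups that do not overlap, the carrier with the highest mean and the 2 with the largest range per role, and members of the lists. Promoters were read from RefSeq windows of 250 bases before to 50 after the start. Plots used matplotlib 3.10.9 in Python 3.11.15.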

Additional observations from a re-analysis of the deposited data

Results flagged for a closer look

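The 12 carriers below had the largest positive and negative differences between the responses of the lines (C32 response less A375M2 response, log2 scale). They were chosen by that difference among carriers for which limma's test of it passed, so their passing is no separate result. The test passed for 154 of 185 carriers (83.2%), against 80.2% of all genes. The difference was positive for SLC7A8 (5.07), SLC16A10 (3.62), SLC27A5 (3.44), SLC26A4 (3.15), SLC24A2 (3.01) and SLC47A1 (2.97). With signals under log2 4 set to 4 it was 1.49 for SLC16A10 and 1.38 for SLC24A2. It was negative for SLC44A5 (-7.12), SLC22A15 (-5.38), SLC7A11 (-5.35), SLC22A4 (-4.98), SLC2A10 (-4.30) and SLC25A45 (-4.22). At that setting it was -4.11 for SLC44A5, -3.10 for SLC22A4 and -2.51 for SLC2A10. Only SLC7A8, SLC16A10, SLC44A5, SLC22A15 and SLC7A11 of these were at least 2-fold changed in both lines. SLC27A5, SLC24A2, SLC47A1, SLC22A4, SLC2A10 and SLC25A45 lay under log2 4 in every fitted C32 array, so their difference reflects values measured in A375M2 alone.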

How the results depend on the processing

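Counts of carriers at least 2-fold and called stayed within 1.5 times of the reported ones under all 29 settings. With each of the 17 arrays left out in turn they were 70 to 73 for A375M2 shFHL2, 3 to 4 for PMEL, 77 to 83 for shNFYA, 19 to 23 for C32 shFHL2, 82 to 87 between the lines, 20 to 25 for shFHL2 against shNFYA and 76 to 80 for the difference of responses. Under the 12 other settings they were 66 to 86, 2 to 4, 75 to 87, 16 to 23, 80 to 97, 18 to 27 and 72 to 89 in the same order. Carriers opposite in both lines numbered 8 to 10 with an array left out and 7 to 10 otherwise. Single carriers were followed under these settings only where the reported value was called and at least 2-fold. Their staying called is therefore no separate result, and smaller or uncalled values of named carriers were not followed. Of the 3535 values obtained, 3532 kept their direction and an adjusted p under 0.05. By size, 28 of them, of 12 named values, came under 2-fold; of 75 values named for their size 4 did so with signals under log2 4 set to 4 (SLC16A7 and SLC35F1 in C32, SLC44A3 with A375M2 shFHL2 and with PMEL), and 13 were over 1.5 times smaller there. SLC30A1 between the lines was 0.075 with the largest-variance probe set (reported -1.18). With that probe set SLC38A10 was -0.05 (adjusted p = 0.75) in shFHL2 against shNFYA (reported -1.37), and SLC16A7 in C32 was -0.23 (adjusted p = 0.113) with signals under log2 4 set to 4 (reported -2.11). The cause was not tested. Centring each array moved the median of all genes to 0.10 with A375M2 shFHL2 (reported -0.04), 0.13 with shNFYA (0.00) and 0.10 between the lines (-0.10); the carriers' medians there became 0.16, 0.20 and 0.35.

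With the replicate number as a block the counts were 70, 3, 78, 20, 85, 23 and 76, and 9 carriers were opposite in both lines. Deviations of arrays from their own group mean were correlated between same-numbered arrays of different groups. They gave r = -0.998 to 0.088, with 0 of 40 pairs over 0.1, so the numbers were not read as a pairing. The lowest was the mirrored pair of replicate 3 of A375M2 GFP and replicate 3 of A375M2 PMEL. Signals near the lowest values of an array set limit what can be read there.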

Other observations

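Nucleotide sugar and nucleoside carriers were called higher in 9 and lower in 5 of 21 with shFHL2 in A375M2, in 11 and 8 with shNFYA and in 6 and 6 with shFHL2 in C32. Over all genes these shares were 41.1% and 44.3%, 43.5% and 43.3%, and 32.3% and 30.4%. Organic ion, bile acid, peptide, amine and urea carriers were called higher in 6 and lower in 3 of 10 with shFHL2 in A375M2, and in 1 and 5 with shFHL2 in C32, beside the same shares of all genes. In A375M2 the glucose carrier family member SLC2A8 read 1.46, 1.47 and 1.46 with shFHL2 and 3.51, 3.56 and 3.52 with GFP; both groups lie under log2 4 and in different array sets.

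The group with the highest mean was A375M2 shNFYA for 52 of 190 carriers, and the one with the lowest was C32 shFHL2 for 38 of 190. Over all genes, A375M2 shNFYA was highest for 23.2% and C32 shFHL2 was lowest for 21.7%.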
